A study of Saccharomyces cerevisiae with 3 samples.

Results

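Polyamine transport and synthesis genes of Saccharomyces cerevisiae were followed in cells with War1K762R and cells with War1. Of the 10 genes of the set 9 are reported, the transporter genes TPO1, TPO2, TPO4 and TPO5, the synthesis genes SPE1, SPE2, SPE3 and SPE4, and the antizyme gene OAZ1. They were taken by gene symbol from the platform annotation of the array, with the condition of a value on at least 2 of the 3 arrays. All 9 had both of their spots measured on all 3 arrays, so none lay at that limit, and they made up 18 of 13056 spots and 9 of 5543 named genes. The set was chosen by pathway with the log2 ratios of this same comparison known, TPO4 among the higher genes. The values of the 9 genes are therefore given as a description, with no p-value.

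Each array set a culture with War1K762R directly against a culture with War1. The cells with War1K762R were of strain background W303 and carried the mutant form behind the galactose-inducible GAL1 promoter; by its name the mutant has arginine in place of lysine. The cells with War1 were of the same background and carried War1 behind the same promoter, so galactose induction was common to both by design. Whether its extent was equal was not tested. The log2 ratios of the WAR1 gene, War1K762R over War1 as defined below, were 0.74, 0.12 and 0.19 in replicates 1, 2 and 3. Their mean was 0.35 ± 0.34 (SD, n = 3). GAL10, a gene of galactose use named below for its likeness to TPO4, had ratios of 0.96, 1.02 and 0.81. All cultures grew at 30 °C in rich medium with 2% raffinose to an OD600 of 0.8 and were harvested 1 h after 2% galactose was added, and no weak acid is named in the labels. The design text calls the 3 arrays biological repeats. War1K762R was labelled with Cy5 on replicates 1 and 2 and with Cy3 on replicate 3. The labels do not describe the resident WAR1 locus of either strain.

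The polyamines putrescine, spermidine and spermine are small organic cations that bind RNA, DNA and acidic phospholipids, and yeast needs them for growth and for the hypusine modification of the translation factor eIF5A. Synthesis starts with the decarboxylation of ornithine, and aminopropyl groups from decarboxylated S-adenosylmethionine are then added in turn. Antizyme closes a feedback loop: polyamines favour its translation through a programmed frameshift, and it sends ornithine decarboxylase to the proteasome. Excess polyamine leaves the cell through proton antiporters of the drug transporter family DHA1, which also carry other substrates and are known for resistance to drugs and organic acids. War1, a zinc cluster transcription factor, is known for the induction of the carboxylate exporter gene PDR12 under weak acid stress.

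A ratio below is the log2 ratio of War1K762R over War1, after the median over the spots of an array was subtracted and the spots of a gene were averaged. That the deposited values run this way is likely and not certain, because the labels name the dyes but no source used here says that the scanner divided Cy5 by Cy3. A treatment text of replicates 1 and 2 also names the mutant for the Cy3 channel, against the source names that were followed. With the other direction every sign, every higher or lower and every rank and percentile below would turn, while sizes and p-values would stay. A gene was called when its mean ratio differed from 0 at an adjusted p under 0.05 in a limma fit over the 5479 genes with a value on at least 2 arrays. Values were present for 12277, 12112 and 7367 spots of replicates 1, 2 and 3. Across the 3579 genes on all 3 arrays the median SD between arrays was 0.20. The spread between arrays may be partly technical, and fold changes are given from the same means.

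Among these genes TPO4 stood apart from the other 8. It was higher with War1K762R on every array and by about the same amount, 1.75-fold on average, while the means of the other 8 genes lay between -0.039 and 0.20. In the fit over all genes 1 of the 9 genes, TPO4, was called higher and 0 were called lower. Of all genes tested 1.22% were called higher and 0.913% lower. Of the 50 genes called lower 48 had values on 2 arrays only, while all 9 polyamine genes had 3. A fit of only the genes on all 3 arrays, which also called TPO4, called 12 genes (0.335%) higher and 1 lower. The call of TPO4 ended without replicate 1, where its mean was 0.75. Without that array only 1 gene was called higher over all genes, against 67 with all arrays. Because the set was proposed from this comparison, nothing is read from the count of 1 of 9. At an unadjusted p under 0.05 in the limma fit the count was again 1 of 9, against 16.9% of all genes tested in either direction. Nothing is read from this count either. TPO2, TPO4 and SPE4 were above 0 on all 3 arrays, 3 of 9 genes against 24.7% of genes on all 3 arrays, and 0 of 9 were below 0 on all 3, against 13.5%. The median of the 9 means was 0.18, and it was 0.10 without TPO4, against 0.049 for all genes on 3 arrays.

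**Figure D1:**
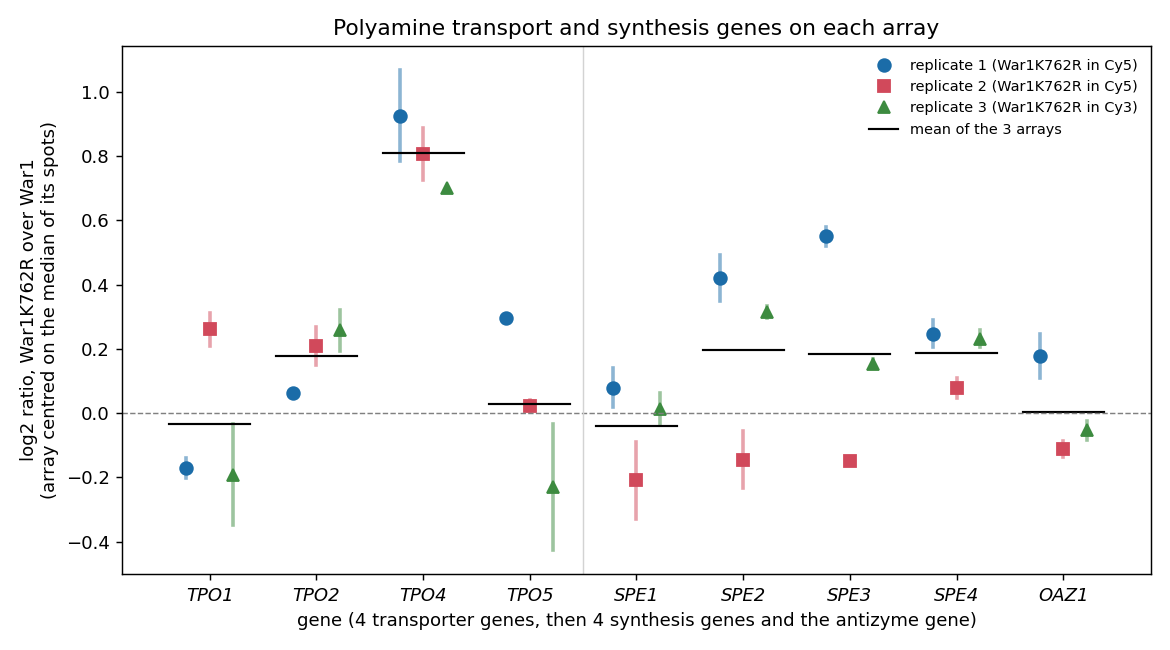
Log2 ratio of War1K762R over War1 (vertical axis) of the 9 genes (horizontal axis). Symbols are the mean of the spots of a gene on 1 array, coloured bars join its 2 spots, and black lines are the mean of the 3 arrays. TPO4 lies between 0.70 and 0.93 on the arrays, above every value of the other 8 genes, of which the highest is 0.55.

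TPO4 (YOR273C) encodes a plasma membrane exporter of polyamines. Its ratios were 0.93, 0.81 and 0.70 in replicates 1, 2 and 3, which are 1.90-, 1.75- and 1.62-fold, with a mean of 0.81 ± 0.11 (SD, n = 3). The dye-swapped array, replicate 3, gave the lowest of these values and differed from the mean of the other arrays by 0.17. Its spots read 0.78 and 1.07 in replicate 1, 0.89 and 0.72 in replicate 2, and 0.70 for both spots in replicate 3, so that all 6 readings lay between 0.70 and 1.07. On a scale where 100 is the highest ratio, TPO4 lay at percentile 99.2, 97.4 and 99.3 of the genes tested in replicates 1, 2 and 3. Among genes on all 3 arrays it ranked 18 by its mean and 4 by its lowest array. Of 3579 genes on all 3 arrays 0.196% were at least 1.5-fold higher on each of them, and TPO4 was among these.

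The call of TPO4 ended in further settings. The set was chosen with TPO4 known to be among the higher genes. A call kept or lost in these settings is therefore not read as support. With a dye term, fitted on the genes of all 3 arrays, TPO4 was not called, at a mean of 0.78, and only 2 genes were called higher. That fit estimates a mean and a dye term from 3 arrays, of which only replicate 3 was swapped. The lost call therefore cannot tell a dye effect from lost precision. TPO4 was called without replicate 2 and without replicate 3 (means 0.81 and 0.87). Without replicate 3 on only the genes of all 3 arrays it was not called, at the same mean. With replicate 3 turned once more, as if that column ran the other way, its mean was 0.34 and it was not called. Only 1 gene was called higher over all genes in that setting.

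The carboxylate exporter gene PDR12, the known target of War1, gives a scale for these values. Its ratios were 1.41, 0.95 and 0.52 in replicates 1, 2 and 3, with a mean of 0.96 ± 0.45 (SD, n = 3). This SD was larger than that of TPO4, 0.11. TPO4 lay below PDR12 by 0.49 in replicate 1 and by 0.14 in replicate 2, and above it by 0.18 in replicate 3. The order of these genes thus differed between arrays. The 3 genes whose ratios were most like those of TPO4, by the root mean square difference over the 3 arrays among 3578 genes, were TAL1, the transaldolase gene, at 0.13, GAL10, of galactose use, at 0.14, and NRT1 (YOR071C), a nicotinamide riboside transporter gene, at 0.15. GAL10 had ratios of 0.96, 1.02 and 0.81 in replicates 1, 2 and 3, above TPO4 on each array.

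The other DHA1 exporters of the set had lower ratios than TPO4 on each array. TPO1 (YLL028W), which encodes a plasma membrane exporter of spermidine and spermine, had ratios of -0.17, 0.26 and -0.19 in replicates 1, 2 and 3 and a mean of -0.034 ± 0.26 (SD, n = 3). It was above 0 only in replicate 2, and its 2 spots in replicate 3 were 0.32 apart, at -0.033 and -0.35. TPO2 (YGR138C), a spermine exporter gene, had 0.064, 0.21 and 0.26 and a mean of 0.18 ± 0.10, with each of its spots above 0 on each array. TPO2 was thus the more even of these exporters, with a range of 0.19 between arrays against 0.45 for TPO1. Whether the spots of TPO2 cross-hybridise with transcripts of related genes was not examined, so its values are uncertain as gene-specific values.

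TPO5 (YKL174C) belongs to another transporter family, the amino acid permeases, and is known for polyamine excretion through Golgi-derived vesicles. Its ratios were 0.30, 0.022 and -0.23 in replicates 1, 2 and 3, with a mean of 0.030 ± 0.26 (SD, n = 3). It was high in replicate 1 and low in replicate 3, where its spots lay 0.39 apart. That was the largest gap between spots in the set, whose median gap in replicate 3 was 0.061, against 0.12 over all pairs of spots on that array. The ratio of TPO5 in replicate 3 therefore rests on spots that disagreed.

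The means of the 4 synthesis genes lay between -0.039 and 0.20, and single genes spread over 0.17 to 0.70 between arrays. SPE1 (YKL184W) encodes ornithine decarboxylase, which makes putrescine, and had ratios of 0.079, -0.21 and 0.013 in replicates 1, 2 and 3, with a mean of -0.039 ± 0.15 (SD, n = 3). SPE2 (YOL052C) encodes S-adenosylmethionine decarboxylase, which makes the aminopropyl donor, and had 0.42, -0.14 and 0.31, with a mean of 0.20 ± 0.30. SPE3 (YPR069C), the spermidine synthase gene, had 0.55, -0.15 and 0.15, with a mean of 0.18 ± 0.35. All 3 were highest in replicate 1 and lowest in replicate 2.

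SPE4 (YLR146C), the spermine synthase gene, had ratios of 0.25, 0.078 and 0.23 in replicates 1, 2 and 3 and a mean of 0.19 ± 0.093 (SD, n = 3). It was also lowest in replicate 2 but stayed above 0 there, with each of its spots above 0 on each array. Its SD was the smallest of the 9 genes, with TPO2 and TPO4 next. OAZ1 (YPL052W), the antizyme gene, had 0.18, -0.11 and -0.053 and a mean of 0.0044 ± 0.15. The mean of OAZ1 was thus near 0, with replicate 1 above 0 and the other arrays below it. Antizyme is regulated in translation and Spe1 in protein stability, which transcript ratios do not measure.

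**Figure D2:**
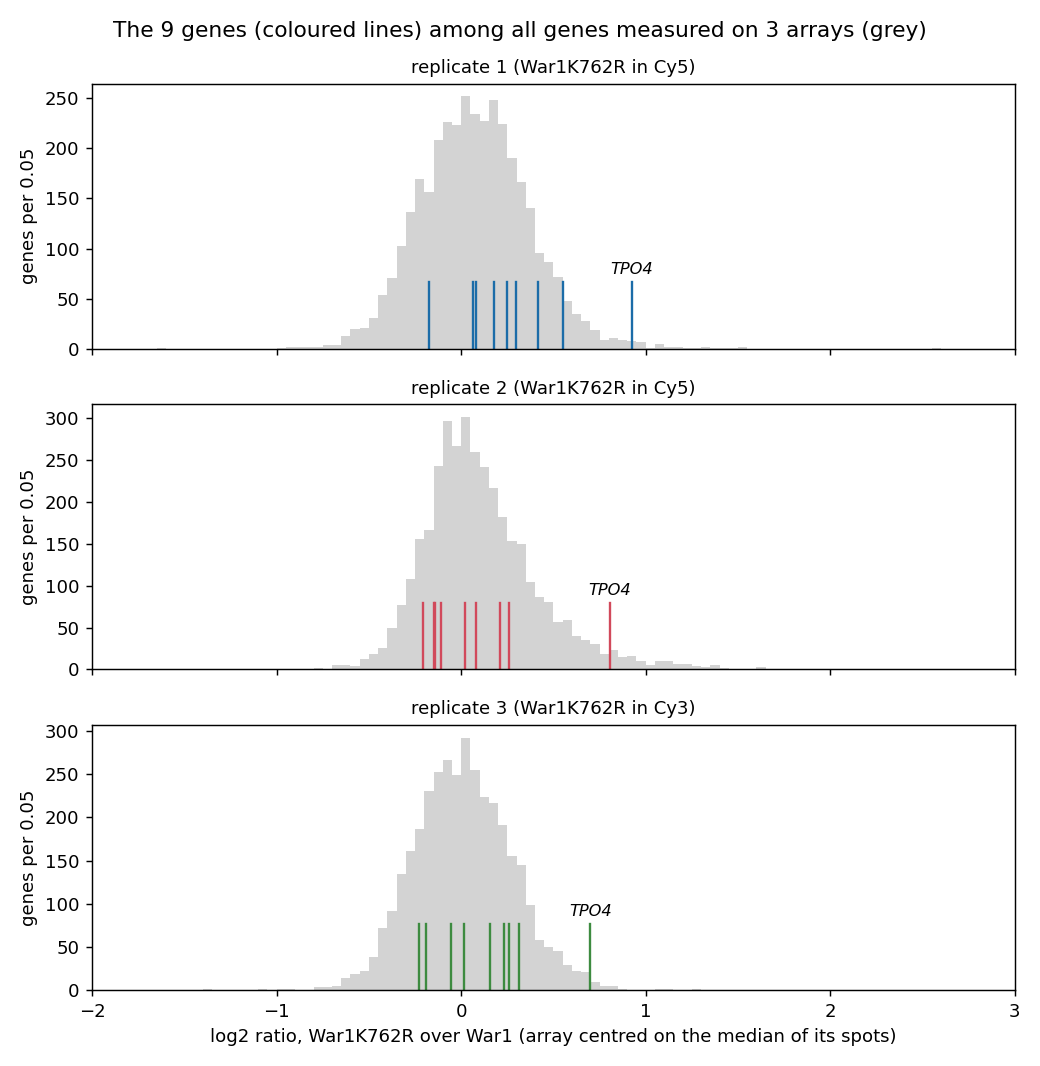
Histograms of the log2 ratio of War1K762R over War1 (horizontal axis) for the 3579 genes on all 3 arrays (vertical axis, genes per bin), a panel for each array, with coloured lines at the 9 genes. TPO4 lies in the upper tail at 0.93, 0.81 and 0.70, and the other 8 genes lie between -0.23 and 0.55, the highest of them SPE3 in replicate 1, at percentile 95.5 of that array.

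The 5 genes of synthesis and antizyme each had their lowest ratio in replicate 2, and the 4 transporter genes had no common order of arrays. The medians of synthesis and antizyme were 0.25, -0.14 and 0.15 in replicates 1, 2 and 3, where all genes on 3 arrays had medians of 0.071, 0.057 and 0.0055. Of SPE1, SPE2, SPE3 and SPE4, 4 of 4 genes (8 of 8 spots) were above 0 in replicate 1, against 59.5% of genes on all 3 arrays. In replicate 2, 1 of these 4 genes was above 0, where 59.8% of genes were above and 40.2% below 0. Of their 8 spots 2 were above and 6 below 0 there. War1K762R carried Cy5 on both of these arrays, and the cause of this difference was not tested. Of the transporter genes, TPO1 was highest in replicate 2, TPO2 in replicate 3, and TPO4 and TPO5 in replicate 1. The medians of the 4 transporter genes were 0.18, 0.23 and 0.033 in replicates 1, 2 and 3, and without TPO4 they were 0.064, 0.21 and -0.19. The ratios of transporter and synthesis genes overlapped on each array, and a difference between these groups was not tested. The spots of a gene share a culture pair and an array, and this pattern was described after the values were seen.

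**Figure D3:**
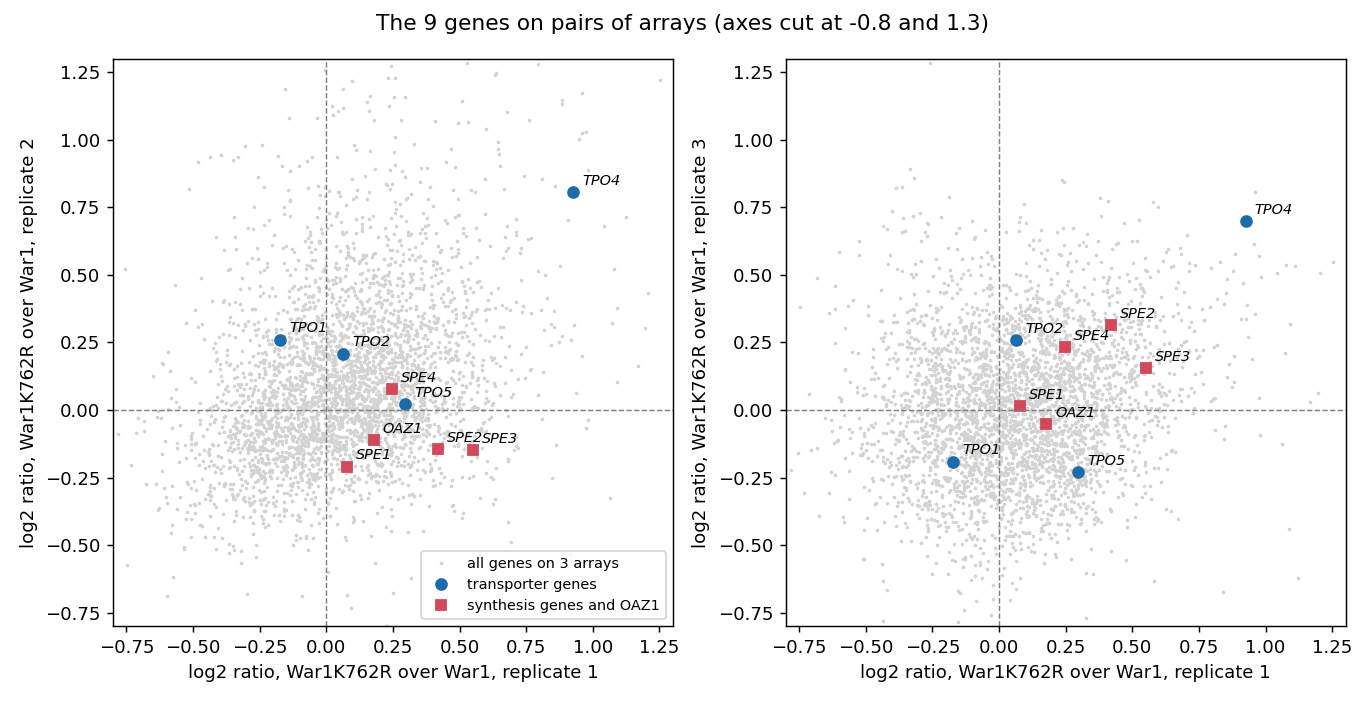
Log2 ratio of War1K762R over War1 in replicate 1 (horizontal axes) against replicate 2 (left) and replicate 3 (right, vertical axes) for the 9 genes, with all genes on 3 arrays in grey. TPO4 is at the upper right in both panels, and in the left panel SPE1, SPE2, SPE3 and OAZ1 lie below 0 in replicate 2 and above 0 in replicate 1, and TPO1 the other way round.

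The order of the means was TPO4, SPE2, SPE4, SPE3, TPO2, TPO5, OAZ1, TPO1 and SPE1. Below TPO4 no neighbours in this order differed beyond their spread: SPE2 to TPO2 lay between 0.20 and 0.18, and TPO5 to SPE1 between 0.030 and -0.039. The gap from TPO4 to the next gene was 0.38 in replicate 1, 0.55 in replicate 2 and 0.38 in replicate 3. The next gene differed by array, SPE3, TPO1 and SPE2 in that order of replicates. In the 12 other settings that kept the direction of replicate 3 and the centring of each array, the mean of TPO4 ranged from 0.75 to 0.87. That of TPO2 ranged from 0.14 to 0.23 and that of SPE4 from 0.16 to 0.24. The means of TPO1, TPO5, SPE1 and OAZ1 took both signs over these settings.

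Around these genes, 36 further genes of polyamine uptake, precursors, use, transporter family and regulation were read from the same fit. Of the 36, 1 rose and 0 fell, where 1.22% of all genes tested were called higher and 0.913% lower. Of all 50 genes called lower 48 had values on 2 arrays only. Values were present on all 3 arrays for 27 of the 36 genes and on replicates 1 and 2 only for 9. Over the 27 genes the median of the means was 0.10, with 20 above 0, against a median of 0.049 and 60.0% above 0 for all genes on 3 arrays. This difference was not tested.

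**Figure D4:**
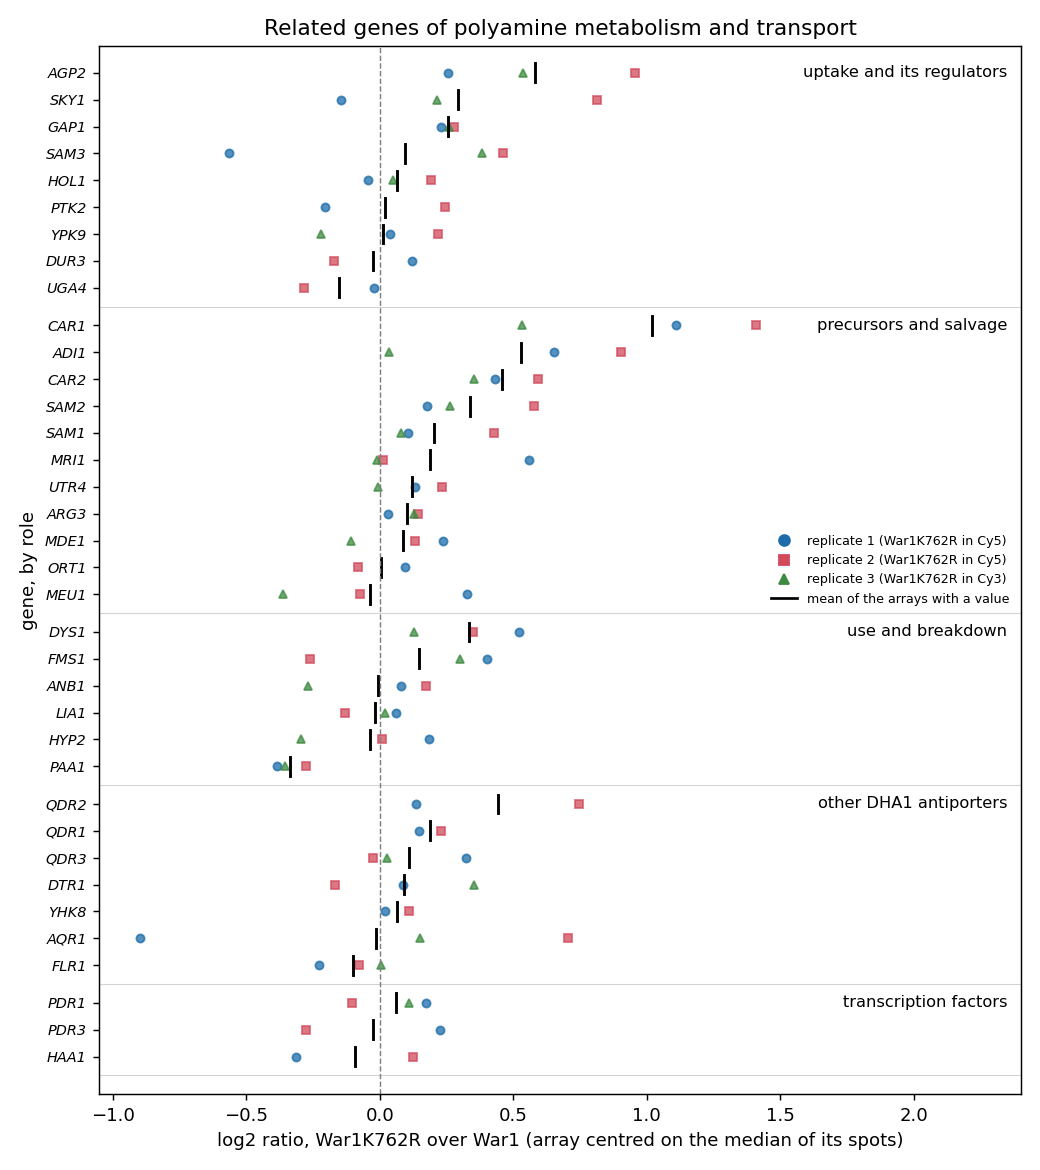
Log2 ratio of War1K762R over War1 (horizontal axis) of 36 related genes by role (vertical axis). Symbols are arrays and black bars the mean of the arrays with a value. CAR1 has a mean of 1.02, and AGP2 is next at 0.58.

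Among 11 genes of precursors and salvage, the gene that rose was CAR1 (YPL111W), which encodes arginase, the enzyme that releases ornithine from arginine. Its ratios were 1.11, 1.41 and 0.53 in replicates 1, 2 and 3, with a mean of 1.02 ± 0.45 (SD, n = 3, 2.02-fold, limma, adjusted p = 0.00751). All 3 arrays were high, replicate 3 least. The call ended without replicate 1 (mean 0.97, adjusted p = 0.176), with a dye term (0.90, adjusted p = 0.0701) and with replicate 3 turned once more (0.66, adjusted p = 0.497), and over 14 other settings the adjusted p ranged from 0.00163 to 0.497 (limma). Without replicate 1 only 1 gene was called higher over all genes, against 67 with all arrays. With a dye term 2 were called higher, and with replicate 3 turned once more 1 was. The lowest of the 11 was MEU1, of methylthioadenosine salvage, at -0.037 ± 0.35 (limma, adjusted p = 0.922). Of the 11 means 10 were above 0, with a median of 0.19, against 60.0% and 0.049 for all genes on 3 arrays. Of the 11 genes 10 had values on 3 arrays, and this difference was not tested.

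Of 9 genes of polyamine uptake and its regulation 0 were called. The highest was AGP2 (YBR132C), a plasma membrane protein needed for high-affinity spermidine uptake, with 0.26, 0.95 and 0.54 in replicates 1, 2 and 3 and a mean of 0.58 ± 0.35 (SD, n = 3, limma, adjusted p = 0.0555). It was above 0 on each array and passed in 2 of 14 other settings, in which its adjusted p ranged from 0.0398 to 0.763. The lowest was UGA4, a vacuolar carrier of 4-aminobutyrate and putrescine, at -0.15 over 2 arrays (limma, adjusted p = 0.674).

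Of 6 genes of use and breakdown 0 were called. DYS1, which encodes deoxyhypusine synthase, the enzyme that uses spermidine to modify eIF5A, was highest at 0.33 ± 0.20 (SD, n = 3, limma, adjusted p = 0.222). PAA1, a polyamine acetyltransferase gene, was lowest at -0.34 ± 0.057 (limma, adjusted p = 0.201) and was below 0 on each array, at -0.38, -0.27 and -0.35. DYS1 was above 0 on each array and PAA1 below 0 on each, and neither mean passed the test.

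Of 7 other DHA1 antiporter genes 0 were called, and their median was 0.090. QDR2, a multidrug exporter gene, was highest at 0.44 ± 0.43 over replicates 1 and 2 (SD, n = 2, limma, adjusted p = 0.238), with 0.14 and 0.75. FLR1, a fluconazole exporter gene, was lowest at -0.10 ± 0.12 (SD, n = 3, limma, adjusted p = 0.732). Among the genes of transcription factors known for polyamine exporter genes, PDR1, PDR3 and HAA1, 0 of 3 were called. PDR1, of pleiotropic drug resistance, had a mean of 0.060 ± 0.14 (limma, adjusted p = 0.855). HAA1, of the response to acetic acid and known to induce TPO2, had -0.31 and 0.12 in replicates 1 and 2 and a mean of -0.094 (limma, adjusted p = 0.822).

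The chromosomal neighbours of the 9 genes, taken from the R64 assembly, numbered 18 protein-coding genes. A value on at least 2 arrays was present for 16, and the median of their mean ratios was 0.022. TPO4 lies between YTM1, a ribosome biogenesis gene, and MOD5, a tRNA modification gene. YTM1 had ratios of 0.15, -0.21 and -0.17 in replicates 1, 2 and 3, and MOD5 had -0.12 and 0.54 in replicates 1 and 2. Neither neighbour was high on each array as TPO4 was. The highest neighbour mean was 0.65 ± 0.29 (SD, n = 3), for FRA1 beside TPO1, and the lowest was -0.33 ± 0.21 over 2 arrays, for ARL3 beside OAZ1. FRA1, of iron regulation, and ARL3, a small GTPase gene of Golgi traffic, were named after their values were seen.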

How the data were processed

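The deposited values were log2 ratios, 1 for each spot of an array; for the image analysis and normalization by the authors, no source used here gives details. The cDNA was made from 20 µg of hot-phenol RNA with dye-coupled nucleotides, per the labels' protocols. Dyes were taken from the source names of the channels; a treatment text that names the mutant for the Cy3 channel of replicates 1 and 2 was not used. For deposited log2 ratios between -0.5 and 0.5, the antilog had 3 decimals, within rounding, for 100% of values of replicates 1 and 2, and in replicate 3 for 100% only after a change of sign (9.95% as deposited). The columns were therefore taken to run the same way. The column medians as deposited were -0.27, 0.16 and 0.089, so each array was centred on its median, and 6.0%, 7.2% and 43.6% of spots had no value. Single spots of a gene had an SD of 0.12, 0.17 and 0.14, and the number of arrays limits the precision.

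Mean ratios were tested against 0 with limma 3.58.1 (lmFit and eBayes, two-sided, R 4.3.3) and Benjamini-Hochberg adjustment over all 5479 genes, checked on simulated data. No signal or background values were used here. The p-values measure the spread between 3 arrays, or between 2 arrays for 1900 of the 5479 genes, with the variance moderated over all genes. The related genes on 2 arrays had no value on the dye-swapped array, replicate 3. All symbols matched the R64 reference table; the labels name no build, so no coordinates are printed, and no sequences are shown. Of the set, 1 gene is not reported here. The members, the related genes and the tests were chosen with earlier results of these data known. Of related genes, the text names those called and the highest and lowest mean of each role; likeness to TPO4 used the 3 smallest root mean square differences. Alternatives were the number of arrays, centring, a dye term, the handling of spots, the direction of replicate 3, array weights and leaving out each array.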

Additional observations from a re-analysis of the deposited data

How the results depend on the processing

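Counts of calls over all genes depended strongly on the setting. In the limma fit 67 genes were called higher and 50 lower, and 925 had an unadjusted p under 0.05. Of the 67 genes 60 had values on 3 arrays, and of the 50 genes 48 had values on 2 arrays only. The counts higher and lower were 12 and 1 for genes on all 3 arrays, 24 and 15 without centring, 2 and 1 with a dye term (on genes with 3 arrays), 13 and 11 on single spots, and 1 and 1 with replicate 3 turned once more. Leaving out each array in turn gave 1 to 46 higher and 1 to 34 lower, the lowest without replicate 1 (1 and 1). On the genes of all 3 arrays, settings chosen after the data were seen, the counts were 1 to 29 higher and 1 lower. The count of the 9 polyamine genes called higher was 0 with a dye term and with replicate 3 turned once more, and 0 to 1 without each array. That of the related genes was 0 in those same settings, 2 with array weights or when arrays were centred on the tested genes (CAR1 and AGP2), and 0 to 2 without each array. No alternative called any of the 9 polyamine genes or the 36 related genes lower. Of 126 values of the 9 means under alternatives, 123 stayed within 1 SD. Leaving out 1 of the 3 arrays cannot move a mean by 1 SD. The settings on the number of arrays and on spots left these means unchanged. That count is therefore no measure of stability. The other 3 values, for TPO2 (0.0049), TPO4 (0.34) and SPE4 (0.031), came from turning replicate 3. MEU1 changed sign with replicate 3 turned once more (0.20) and without replicate 3 (-0.22 to 0.13 over the arrays left out), and PDR1 with replicate 3 turned once more (-0.012). The causes were not tested. No paired analysis was possible because all arrays form 1 group and each already pairs the strains. The precision is limited by the 3 arrays: AGP2, at a mean of 0.58, was not called, so a gene that was not called may still differ.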
